A study of Mus musculus with 24 samples.

Results

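The control fragments of the Hi-TransMet screen were the constructs that carried a scrambled (Sc) version of a transcription factor motif, or no motif, in place of a working binding site. They were taken by name from the 5 pooled libraries as every construct whose name holds "_sc" together with the construct named No_Motif, which gave 32 of the 62 constructs, 31 of them scrambled and 1 motif-free. The other 30 carried a wild-type (WT) motif. Each construct was the same bacterial DNA fragment, FR1, with a barcode, the motif and a second barcode at its centre, placed in mouse cells by recombinase-mediated cassette exchange at the β-globin locus, whose 5 annotated coding genes span chromosome 7, 103812524 to 103853216, in GRCm38. The files give positions along FR1 relative to the motif and not in the genome. The sequences of the Sc oligomers and of FR1 are not shown here.

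The pools were mouse embryonic stem cells (ESCs, C57BL/6 X 129S5) that received the plasmid library untreated (−SssI), ESCs that received the same library after in vitro methylation by the bacterial enzyme M.SssI (+SssI), neural progenitors (NPs) differentiated from each of these over 8 days in the study's protocol, with retinoic acid in the later days, and ESCs lacking TET1, TET2 and TET3 (TET TKO, C57BL/6 X 129/sv) that received the +SssI library. All cells carried the exchange site, had received a plasmid expressing CRE and had been selected with ganciclovir. Each condition was analysed as 1 pool, with the counts of its numbered runs summed. The study merged biological and technical replicates, and the labels do not say which run is which. No value below therefore has an identified replicate of the condition, and the tests compare pooled libraries and not conditions. The TET TKO cells came from another strain cross with its own exchange site, and their reads were not filtered on non-CG methylation as the others were, so that genotype, line and read filter cannot be told apart.

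Methylation of the cytosine in a CpG is written by the de novo methyltransferases DNMT3A and DNMT3B, copied after replication by DNMT1, and removed by loss during replication or by oxidation through the TET enzymes. M.SssI methylates every CpG in purified DNA, so that the +SssI library enters the cells methylated and the −SssI library unmethylated. A scrambled motif is a shuffled binding site that keeps its length, its base composition and its CpGs but is meant not to be bound, so that it serves as the baseline against which a WT motif is read.

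For each CpG of each fragment, methylation is the percentage of deduplicated bisulfite reads called methylated. Reads were summed over all numbered runs of a pool. CpGs with at least 10 reads were used. An upstream amplicon holds 18 CpGs, from −291 to −32 bp of the motif, and a downstream amplicon holds 5 CpGs, at 37, 46, 109, 151 and 252 bp. CpGs inside motifs were not used. Of the 736 values that 32 fragments and 23 CpGs allow, 731, 718, 731, 718 and 736 were covered in ESCs −SssI, ESCs +SssI, NPs −SssI, NPs +SssI and TET TKO ESCs +SssI, with a median of 185, 188, 266, 429 and 113 reads. The counts of the pools came in 8, 5, 7, 9 and 3 numbered runs. Whether a run is a biological or a technical replicate is not given in the labels. In 8 pairs of runs, the reads per fragment of an amplicon did not differ detectably beyond the sampling noise (chi-square test, p above 0.05), so that reads of different runs may come from the same molecules and the p-values below are then too small.

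The control fragments were partly methylated in ESCs and highly methylated in NPs and in TET TKO ESCs. Averaged over its CpGs, a control fragment carried 56.1% methylation in ESCs −SssI (SD 17.2 over 32 fragments) and 67.4% in ESCs +SssI (SD 10.6). The means were 87.3% in NPs −SssI (SD 15.6), 87.0% in NPs +SssI (SD 6.46) and 88.7% in TET TKO ESCs +SssI (SD 7.88). These SDs are the spread between fragments of 1 pool and not between replicates. Fragments under 50% numbered 11 in ESCs −SssI and 3 in ESCs +SssI, against 1, 0 and 0 in the other 3 pools. The motif-free fragment lay within the range of the Sc fragments in each pool, with 60.3%, 63.2%, 91.0%, 87.6% and 89.3% in the order of pools given above. It had more methylation than 17, 8, 19, 17 and 13 of the 31 Sc fragments. Over the 30 WT fragments the means were 48.2%, 51.4%, 82.9%, 77.4% and 89.6%, given for scale and not tested.

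A single fragment set the spread in NPs −SssI. c-Rel_sc, the scrambled motif of an NF-κB subunit of blood cells, had 3.70% there, from 18 reads of the upstream amplicon and none of the downstream one. Of these, 17 reads came from 1 run and were unmethylated at every CpG. Without it, the mean in NPs −SssI was 90.0% and the SD fell to 3.39, while the means of the other pools moved by less than 1 point. The same fragment had a median of 82 upstream reads in ESCs −SssI and 2 in ESCs +SssI, and it was the least covered of all members.

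The level of a CpG differed with its place in FR1, and the order of the CpGs was much alike in the ESC and NP pools. The CpG with the lowest median in each ESC and NP pool, but not in TET TKO ESCs, was at 151 bp, in the downstream amplicon. Its median over the control fragments was 19.1%, 43.1%, 62.7%, 63.1% and 87.9% in ESCs −SssI, ESCs +SssI, NPs −SssI, NPs +SssI and TET TKO ESCs +SssI. The CpG at 252 bp, the next one downstream on the same amplicon, had medians of 77.8%, 80.9%, 95.9%, 91.3% and 97.4%. Of the fragments with both CpGs covered, 30 of 31 were higher at 252 than at 151 bp in ESCs −SssI, 31 of 32 in ESCs +SssI, 31 of 31 in NPs −SssI and 31 of 32 in NPs +SssI. The median gap between them was 48.7, 31.4, 32.6 and 26.5 points in these pools and 1.28 points in TET TKO ESCs. CpGs of an amplicon are read on the same molecules and fragments share their sequence outside the motif, so positions were described and not tested.

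Each CpG was then set against the mean of its own fragment over all 23 CpGs, which removes the level of the fragment. The CpG at 151 bp lay a median of −33.9 points from that mean in ESCs −SssI, with 28 of 31 fragments below it. The deviation was −20.7 points in ESCs +SssI (28 of 31 below), −28.3 in NPs −SssI (31 of 31 below) and −25.2 in NPs +SssI (29 of 31 below). In TET TKO ESCs it was −1.46 points, with 17 of 32 below. It was the lowest CpG of the whole fragment in 15, 11, 18, 23 and 5 of 32 fragments in the 5 pools.

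The runs covered the 2 amplicons unequally, so each CpG was also set against the mean of its own amplicon. By this measure the CpG at 151 bp deviated by −23.8, −19.5, −23.1, −17.3 and −2.05 points in the 5 pools. Within single runs with at least 5 fully covered fragments, the median deviation of this CpG was negative in each of them, from −35.7 to −15.2 points over 3 runs of ESCs +SssI, from −23.5 to −4.21 over 4 runs of NPs −SssI and from −20.0 to −15.0 over 8 runs of NPs +SssI. The only such run of ESCs −SssI gave −22.3 points, and the 3 runs of TET TKO ESCs gave −1.91 to −0.976. These runs may not all be separate readings. Downstream, runs 1 and 11 and runs 9 and 10 of NPs +SssI resemble each other in their read numbers. So do runs 10 and 11 of TET TKO ESCs. WT fragments had the same CpG at −19.4, −18.5, −24.4, −22.6 and −1.42 points of their amplicon mean, and the motif-free fragment at −21.9, −24.1, −18.0, −14.5 and −2.37 points.

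In the upstream amplicon the least methylated CpGs of both ESC pools were a pair 3 bp apart at −211 and −208 bp. The CpG at −211 bp had medians of 38.3%, 48.6%, 80.1%, 75.2% and 92.3% in the 5 pools and that at −208 bp had 38.7%, 44.7%, 86.8%, 81.3% and 84.5%. Against the mean of the upstream amplicon they deviated by −21.6, −20.5, −10.8, −12.0 and 0.634 points and by −21.5, −24.7, −5.08, −7.14 and −0.816 points. In ESCs −SssI, 30 and 30 of 32 fragments were below their amplicon mean at these CpGs, and 28 and 29 of 31 were below it +SssI. In NPs −211 bp stood below the amplicon mean in 26 of 32 and 29 of 31 fragments. In TET TKO ESCs the counts were 14 and 18 of 32. Within single runs of NPs −SssI, the median deviation at −211 bp was −12.6, −9.79 and −14.1 points in runs 2, 9 and 10, which resemble each other in their read numbers. It was 0.521, −1.38 and 0.574 points in runs 6, 8 and 11. In NPs +SssI it was negative in 7 of 7 runs, of which runs 2 and 9 resemble each other in their upstream read numbers. At −208 bp the median deviation was negative in 3 of 6 runs of NPs −SssI, the same runs 2, 9 and 10. It was negative there in 4 of 7 runs of NPs +SssI.

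The outermost upstream CpG, at −291 bp, was low in ESCs, with medians of 45.7% −SssI and 52.3% +SssI. It was below its amplicon mean in 26 of 32 and 31 of 31 fragments. In NPs its medians were 90.4% and 82.9%, and the deviation shrank to −2.48 and −5.10 points. The CpG at −148 bp was lower than its amplicon in all 4 of these pools, by medians of −9.29, −10.1, −5.57 and −6.99 points, and it was the lowest CpG of TET TKO ESCs, at a median of 83.3%. At −166 bp the ESC medians were 55.9% and 60.8%, against 90.3%, 89.4% and 87.6% in the other pools.

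The upstream CpGs with the highest medians in both ESC pools were those at −235 and −103 bp. Medians at −235 bp were 82.4%, 85.9%, 96.2%, 95.2% and 97.9%, and in ESCs −SssI 32 of 32 fragments exceeded their upstream mean there. Medians at −103 bp were 78.2%, 87.7%, 99.3%, 97.0% and 98.5%, and the number of fragments above their upstream mean was 30 of 32, 30 of 31, 32 of 32, 29 of 31 and 27 of 32. By the deviation from the mean of all CpGs, −103 bp was the highest CpG in ESCs +SssI (17.2 points), NPs −SssI (7.58) and TET TKO ESCs (4.55), and 252 bp was the highest in ESCs −SssI (21.6). In NPs +SssI, −235 and −103 bp lay 7.60 and 7.64 points above the fragment mean.

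Neighbouring CpGs did not always share a level. The CpG at −101 bp, 2 bp from −103 bp, had medians of 67.1%, 79.5%, 94.8%, 91.0% and 91.9%, and −103 bp was the higher of them in 27 of 32, 23 of 31, 21 of 32, 23 of 31 and 20 of 32 fragments. The CpGs at −90 and −88 bp, also 2 bp apart, differed by medians of −7.40 and −3.61 points in ESCs −SssI and +SssI, the one nearer the motif being higher in 23 of 32 and 19 of 31 fragments. In NPs and TET TKO ESCs their median difference was within 1 point. The CpGs at −211 and −208 bp differed by a median of 0.307 points in ESCs −SssI, where each was the higher in 16 of 32 fragments, and −211 bp was the higher in 23 of 31 in ESCs +SssI.

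In the ESC pools the other upstream CpGs lay between these. In NPs −SssI, those at −178, −90, −88 and −84 bp had higher medians than −235 bp. Medians were 73.1%, 82.5%, 95.8%, 92.6% and 94.0% at −275 bp, 62.8%, 71.1%, 91.3%, 88.8% and 97.0% at −264 bp and 66.0%, 70.4%, 95.5%, 90.9% and 92.8% at −242 bp. They were 71.2%, 70.4%, 96.2%, 91% and 90.9% at −187 bp and 69.7%, 69.9%, 98.3%, 92.7% and 94.5% at −178 bp, a pair 9 bp apart, and 73.3%, 82.5%, 95.2%, 94.8% and 91.5% at −121 bp. Towards the motif they were 65.3%, 77.6%, 97.9%, 92.7% and 98.1% at −90 bp, 71.1%, 80.8%, 98.7%, 93.9% and 97.5% at −88 bp, 76.1%, 76.7%, 98.6%, 91.3% and 94.5% at −84 bp and 63.9%, 71.3%, 93.2%, 92.1% and 89.4% at −32 bp. The upstream CpG nearest to the motif, at −32 bp, was thus in the middle of the order in the ESC and NP pools. Downstream, medians at 37 and 46 bp were close to each other, at 42.1%, 61.4%, 88.3%, 85.3% and 97.4% and 42.5%, 60.2%, 88.4%, 85.4% and 97.8%. At 109 bp they were 57.6%, 75.7%, 92.4%, 89.1% and 91.8%. In ESCs −SssI the CpGs at 37 and 46 bp stood below the fragment mean by medians of −15.4 and −17.6 points, and in TET TKO ESCs above it by 3.22 and 3.67.

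From the lowest to the highest CpG median, the profile spanned 63.3 points in ESCs −SssI, 44.6 in ESCs +SssI, 36.6 in NPs −SssI, 33.9 in NPs +SssI and 15.3 in TET TKO ESCs +SssI. NPs +SssI and TET TKO ESCs +SssI had mean levels within 2 points of each other, yet their medians at 151 bp were 63.1% (quartiles 54.2 and 70.8) and 87.9% (quartiles 77.5 and 97.8). Over the 23 CpG medians, Spearman's rho between the 2 ESC pools was 0.895 (Pearson's r 0.928), between the 2 NP pools 0.894 (r 0.966), and between ESCs and NPs 0.787 to 0.889 (r 0.804 to 0.917). Against TET TKO ESCs, rho was 0.461 to 0.593 (r 0.476 to 0.595). These are descriptions over 23 positions of 1 sequence, which share molecules within an amplicon.

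The spread between fragments was set beside that of independent reads. Without c-Rel_sc, read sampling at the median depth of each fragment would give a single CpG an SD of 4.28, 4.01, 2.15, 2.03 and 3.72 points in the 5 pools, while the median SD of a CpG between fragments was 22.7, 15.8, 8.23, 9.76 and 12.7 points. Reads of alike runs may repeat molecules and fragments drew on different runs, so that this spread is not one between scrambles alone. A fragment's level in one pool said little about its level in another. Across 32 fragments, Spearman's rho of the fragment means between pools ranged from −0.321 to 0.133, and between the 2 ESC pools it was 0.0733 (Pearson's r 0.124). The libraries were transfected separately, and the number of founding cells per fragment is not given in the sources used here.

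The lowest fragments in ESCs −SssI were ER_sc at 20.5%, ZF5_Zfp161_sc at 24.8% and NFY_sc at 29.6%, and the highest were GATA_sc at 81.3%, CTCF_sc2 at 80.1% and Nrf1_sc at 75.6%. In ESCs +SssI the lowest were Creb_sc at 42.6%, N-myc_sc at 45.8% and ZF5_Zfp161_sc at 48.1%, and the highest CTCF_sc2 at 83.7%, Pax7_sc2 at 82.8% and FoxA1_sc at 82.1%. CTCF_sc2 was among the 3 highest and ZF5_Zfp161_sc among the 3 lowest in both ESC pools, and no other fragment was. In ESCs +SssI, ZF5_Zfp161_sc had 172 median upstream reads over all runs and 145 in run 4, a run of low upstream levels described below. Downstream these were 765 and 763. Its upstream level in run 4, 41.7%, was the median of that run's 19 fragments. CTCF_sc2 was fully covered upstream in runs 5 and 6 only, from 23 median reads in each. In NPs −SssI, c-Rel_sc was followed from below by ETS_sc at 78.8% and FoxD3_sc1 at 85.4%, and Klf7_sc, Nanog_sc and ZF5_Zfp161_sc led at 95.6%, 95.4% and 93.9%. In NPs +SssI the lowest were Klf4_sc at 60.4%, ETS_sc at 80.4% and Sox2_sc at 81.6%, and the highest c-Rel_sc at 98.4% (5 CpGs alone), Nanog_sc at 94.5% and NFY_sc at 93.5%. In TET TKO ESCs they were OTX2_sc at 70.1%, N-myc_sc at 73.3% and Pax7_sc2 at 75.2%, and Nanog_sc at 98.0%, CTCF_sc1 at 98.0% and E2F1_sc at 97.1%. Over the 5 pools, c-Rel_sc spanned the widest range, 94.7 points, followed by ER_sc with 71.7, and CTCF_sc2 the narrowest, 16.1 points.

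Values of single fragments are given next in the order ESCs −SssI, ESCs +SssI, NPs −SssI, NPs +SssI and TET TKO ESCs +SssI. CTCF is the insulator protein that shapes chromatin loops. The study included 2 CTCF motifs, for 2 orientations, and designed a scramble for each WT motif. CTCF_sc1 carried 72.0%, 66.4%, 87.7%, 82.4% and 98.0%, and CTCF_sc2 carried 80.1%, 83.7%, 91.6%, 84.1% and 96.2%. CTCF_sc2 was the higher of the 2 by 8.11 and 17.2 points in the ESC pools. Within run 5 of ESCs +SssI, CTCF_sc1 and CTCF_sc2 had 85.6% and 88.6% upstream and 69.2% and 79.0% downstream. FOXA1 and FOXD3 are forkhead factors of endoderm and of early embryonic cells. FoxA1_sc had 56.0%, 82.1%, 86.3%, 93.5% and 92.3%. FoxD3_sc1 had 70.5%, 70.9%, 85.4%, 87.9% and 94.8%, and FoxD3_sc2 had 48.5%, 65.8%, 93.1%, 83.1% and 83.5%. The FOXD3 scrambles differed by 22.1 points in ESCs −SssI and by 5.07 in ESCs +SssI, with FoxD3_sc1 higher in both, and by 7.75 points the other way in NPs −SssI. In ESCs −SssI they drew unequally on the runs, as FoxD3_sc1 took 0% and FoxD3_sc2 71.4% of the upstream reads from run 4, a run of low levels described below. PAX7, a paired-domain factor of muscle and neural crest, also had 2 scrambled constructs. A construct named Pax7_wt2 is among the WT fragments, so these may be scrambles of different motifs. Pax7_sc1 had 70.0%, 59.4%, 92.0%, 90.0% and 88.7%, and Pax7_sc2 had 52.7%, 82.8%, 87.1%, 91.8% and 75.2%. Pax7_sc1 was higher by 17.3 points in ESCs −SssI and lower by 23.4 in ESCs +SssI. In ESCs +SssI, Pax7_sc1 was fully covered in run 4 alone, with 62.7% upstream from 73 median reads. Pax7_sc2 was fully covered upstream in run 5 alone, with 82.7% from 104 median reads. The upstream shares of run 4 in ESCs −SssI were 5.51% and 17.6% for the PAX7 scrambles and 2.18% and 0.184% for those of CTCF. Downstream, run 4 gave 57.9% and 100% of the reads of Pax7_sc1 and Pax7_sc2, out of 19 and 12. For each of these 3 factors the order of the 2 scrambled fragments was not the same in all pools. For CTCF it was reversed by 1.77 points, in TET TKO ESCs.

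Among the scrambles of pluripotency factor motifs, Nanog_sc had 46.2%, 75.4%, 95.4%, 94.5% and 98.0%, and it was the only fragment above 94% in all of NPs −SssI, NPs +SssI and TET TKO ESCs. Oct4_sc_new had 38.2%, 65.6%, 86.0%, 91.6% and 77.6%. Oct4-Sox2_sc, from the composite motif that OCT4 and SOX2 bind together, had 56.9%, 80.3%, 92.3%, 86.7% and 92.1%, and Sox2_sc had 58.0%, 71.3%, 91.2%, 81.6% and 87.2%. SOX9 and SOX17 are relatives of SOX2 that act in cartilage and in endoderm. Sox9_sc had 69.7%, 78.2%, 92.0%, 85.1% and 85.8%, and Sox17_sc had 71.4%, 64.2%, 90.8%, 83.8% and 85.8%. Both were above the pool mean in ESCs −SssI. KLF4 and KLF7 are zinc finger factors that bind GC-rich sites. Klf4_sc had 74.7%, 75.2%, 89.6%, 60.4% and 77.2%, and Klf7_sc had 72.2%, 66.2%, 95.6%, 85.7% and 79.0%. Klf4_sc was the only fragment under 80% in NPs +SssI.

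GATA factors, PU.1, RUNX1 and c-REL act in blood cells. GATA_sc had 81.3%, 61.8%, 88.4%, 88.8% and 89.4%, and it was the fragment that stood highest in ESCs −SssI and under the pool mean in ESCs +SssI. PU.1_sc had 71.8%, 55.6%, 89.8%, 90.5% and 96.6%, Runx1_sc had 33.1%, 63.6%, 93.0%, 85.3% and 91.2% and c-Rel_sc had 34.9%, 58.8%, 3.70%, 98.4% and 96.7%. The oestrogen and glucocorticoid receptors are steroid-activated factors. ER_sc had 20.5%, 78.5%, 88.5%, 88.0% and 92.2%, with 43 and 13 median upstream reads in the ESC pools, and GR_sc had 62.8%, 54.5%, 92.4%, 90.4% and 92.1%. ER_sc was the lowest fragment −SssI in ESCs and above the pool mean +SssI, while GR_sc went from 62.8% to 54.5%. OTX2 is a homeodomain factor of forebrain and of primed pluripotent cells, and OTX2_sc had 64.2%, 66.3%, 90.7%, 84.1% and 70.1%.

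Several scrambles came from motifs of factors that bind CpG-rich promoters. Nrf1_sc, from a factor of nuclear genes for mitochondrial proteins, had 75.6%, 73.3%, 89.7%, 86.4% and 95.1%, and E2F1_sc, from a cell cycle factor, had 68.4%, 75.8%, 90.7%, 83.0% and 97.1%. N-myc_sc had 43.8%, 45.8%, 87.9%, 87.0% and 73.3% and Creb_sc, from the cAMP-responsive factor CREB, had 54.9%, 42.6%, 90.9%, 87.1% and 93.1%. These last 2 were the lowest fragments of ESCs +SssI, and in NPs −SssI both were within 4 points of the pool median of 90.7%. ETS_sc had 33.4%, 72.5%, 78.8%, 80.4% and 95.3% and NFY_sc, from the CCAAT-box factor, had 29.6%, 71.3%, 87.6%, 93.5% and 93.2%. ZF5_Zfp161_sc, from a zinc finger protein of GC-rich sites, had 24.8%, 48.1%, 93.9%, 86.2% and 95.6%. KAISO binds methylated DNA and REST silences neuronal genes outside the nervous system. Kaiso_sc had 41.2%, 73.7%, 87.3%, 92.4% and 83.4% and REST_sc had 58.9%, 64.3%, 93.3%, 93.5% and 82.0%. In ESCs −SssI the scrambles of these 9 motifs covered the range from 24.8% to 75.6%.

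Much of the spread in ESCs −SssI followed the numbered run that supplied a fragment's reads. Upstream, 26 fully covered control fragments of run 4 had a mean of 35.9% (SD 11.6, from 15.9 to 54.5), whereas 21 fragments of run 5 had 76.4% (SD 11.9), 21 of run 1 had 76.4% (SD 13.5) and 11 of run 2 had 78.6% (SD 7.65). All 16 fragments that were fully covered upstream in both run 4 and run 5 were lower in run 4, by 14.6 to 69.6 points with a median of 40.1. Klf4_sc had 15.9% in run 4 and 85.5% in run 5, from 97 and 559 median reads, and the motif-free fragment had 23.7% and 82.6%. The 11 fragments that took most of their upstream reads from run 4 had upstream levels of 18.1% to 66.1% (median 37.6), and the 18 that took most from runs 1, 2 and 5 had 34.9% to 83.5% (median 76.2). Over 32 fragments the share of upstream reads from run 4 and the upstream level had a Spearman's rho of −0.688 (Pearson's r −0.777), a relation in which the 2 measures share their reads. The 3 lowest fragments, ER_sc, ZF5_Zfp161_sc and NFY_sc, took 100%, 63.7% and 93.8% of their upstream reads from run 4, and GATA_sc and CTCF_sc2 took 5.14% and 0.184%. What distinguished run 4 is not given in the sources used here. The mean of ESCs −SssI was 69.8% without it. That mean also covers fewer fragments, as ER_sc had all and NFY_sc nearly all of their reads in run 4.

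The same run number was low upstream in ESCs +SssI. There, 19 fragments had 47.2% upstream in run 4 (SD 22.3) and 28 had 73.8% in run 5 (range 44.6 to 88.6%), and 15 of 16 fragments covered in both were lower in run 4. The exception was Klf4_sc, with 97.7% in run 4 and 71.4% in run 5. Downstream the 2 runs were closer, with means of 65.5% over 29 fragments in run 4 and 68.0% over 28 in run 5. Their downstream medians were 57.2% and 70.8%. In NPs −SssI the upstream means of 6 runs with at least 10 such fragments lay between 82.3% and 94.3%, the lowest being the run that held c-Rel_sc. ETS_sc, low in that pool, had 72.5%, 74.1% and 73.4% upstream in runs 2, 9 and 10, which resemble each other in their read numbers, and 98.3% in run 8.

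In NPs +SssI, Klf4_sc was almost free of methylation in some runs and not in others. Upstream it had 0.932% in run 9 and 3.64% in run 2, against 64.5% in run 8, 73.3% in run 1 and 95.6% in run 7. Downstream it had 0%, 2.76% and 14.3% in runs 9, 10 and 2, from 26, 29 and 74 median reads, and 67.1% to 90.3% in runs 1, 7, 8 and 11. Runs 2 and 9 resemble each other in their upstream read numbers, as do runs 9 and 10 and runs 1 and 11 downstream. Reads of such runs may come from the same molecules. In TET TKO ESCs, OTX2_sc had 64.3% upstream in run 10, the only run with that amplicon, and 99.6% downstream in the same run. The 2 amplicons of a fragment therefore did not have to carry the same level, even within a run. ER_sc had 98.6% downstream in run 9 but 40.9% and 38.3% in runs 10 and 11. These last runs resemble each other in their downstream read numbers.

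Setting the 31 Sc fragments against the motif-free fragment asks how far a control depends on which scramble is chosen. Each CpG of each fragment was compared with the same CpG of the motif-free fragment with Fisher's exact test (two-sided, Benjamini-Hochberg adjustment over all constructs of the pool) and called at an adjusted p under 0.05 and a difference of at least 10 points. In ESCs −SssI, 203 of 708 Sc values were higher (28.7%, against 24.8% of all constructs) and 210 lower (29.7%, against 36.4%). In ESCs +SssI, 242 of 695 were higher (34.8%, against 24.8%) and 117 lower (16.8%, against 27.9%). The counts in NPs −SssI were 57 higher (8.05%, against 7.87%) and 113 lower (16%, against 21.8%) of 708. In NPs +SssI they were 86 higher (12.4%, against 9.68%) and 103 lower (14.8%, against 25.8%) of 695, and in TET TKO ESCs 120 higher (16.8%, against 18.2%) and 138 lower (19.4%, against 18.1%) of 713. The median difference from the motif-free fragment was within 6 points in every pool, so that the calls went both ways around it. Every Sc fragment had at least 1 called CpG in each pool, except Sox17_sc in ESCs +SssI with none of 23.

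In ESCs −SssI, CTCF_sc2 was higher than the motif-free fragment at 22 of 23 CpGs and lower at none (mean difference 19.9 points), and GATA_sc was higher at 19 and lower at 2 (21.0 points). ZF5_Zfp161_sc was lower at 19 CpGs (−35.5 points) and ER_sc at 18 (−39.7 points). In ESCs +SssI, Oct4-Sox2_sc was higher at 20 CpGs, and N-myc_sc and Creb_sc were lower at 18 and 15. In NPs +SssI, Klf4_sc was lower at 18 of 23 CpGs and higher at none. When reads were compared within runs by a Cochran-Mantel-Haenszel test, the counts in ESCs −SssI fell to 102 higher and 106 lower of 672 values. Leaving out run 4 of that pool gave 39 higher and 176 lower of 524, and leaving out run 5 gave 137 lower. The lower count in ESCs +SssI was 76 without run 4 and 40 without run 5. The higher count was 35 in NPs −SssI without run 10 and 137 in NPs +SssI without run 8. In TET TKO ESCs without run 10 the counts were 17 higher and 20 lower of 155.

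Single CpGs are given beside the share of all constructs called there. In ESCs −SssI, 24 of 31 Sc fragments were lower than the motif-free fragment at −208 bp (77.4%, against 73.8% of all constructs) and 1 was higher, with a median difference of −23.8 points. The motif-free fragment itself deviated there by −2.22 points from its amplicon mean, against a median of −21.5 over the control fragments. At −88 bp, 17 were higher (54.8%, against 47.5%) and 3 lower. In ESCs +SssI no Sc fragment was lower at 109, 151, 252 or −178 bp, where 14.8%, 8.20%, 9.84% and 8.33% of all constructs were. At these CpGs 19, 20, 23 and 18 of the Sc fragments were higher, which is 61.3%, 64.5%, 74.2% and 60%, against 45.9%, 50.8%, 59% and 45% of all constructs. In NPs +SssI, 17 of 30 were lower at −211 bp (56.7%, against 65%) and 1 higher. All these comparisons share the reads of the motif-free fragment at that CpG.

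Whether methylation before insertion changed the level of a fragment without a binding site was asked in ESCs first. The mean over CpGs was higher +SssI in 22 of 31 control fragments and lower in 9, with a median difference of 5.43 points. By Fisher's exact test per CpG, adjusted over all constructs, 312 of 713 values were higher +SssI (43.8%, against 40.5% of all constructs) and 140 were lower (19.6%, against 22%). The largest difference was that of ER_sc, 58.0 points with 19 of 23 CpGs higher, followed by NFY_sc with 41.6 and ETS_sc with 39.1 points. In ESCs −SssI these 3 fragments took 100%, 93.8% and 76.4% of their upstream reads and 100%, 100% and 90.9% of their downstream reads from run 4, so that ER_sc has no −SssI value without that run. The most negative was that of GATA_sc, −19.5 points with 18 CpGs lower, then PU.1_sc with −16.3 and Creb_sc with −12.3 points. The motif-free fragment changed by 2.97 points, with 5 CpGs higher and 1 lower.

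The balance of this comparison changed with the runs that were counted. Without run 4 of ESCs −SssI, 109 of 529 values were higher +SssI and 185 lower, which turned the larger count from higher to lower. Without run 5 of ESCs +SssI, 214 were higher and 205 lower of 636, and without run 4 of ESCs +SssI 325 and 89 of 662. Run 4 was low upstream in both pools, and leaving it out of ESCs −SssI alone kept its low reads in ESCs +SssI. It was not left out of both pools together, so these counts cannot tell whether the balance rested on run 4. Between the runs numbered 4 of the 2 pools, 9 of 18 fragments were higher +SssI upstream (median difference 3.69 points) and 18 of 22 downstream (21.4 points). Between the runs numbered 5, 6 of 18 were higher upstream (−2.89 points). Whether equal run numbers mark cells handled together is not stated.

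Fewer values were called in NPs. Between NPs −SssI and +SssI, 74 of 713 control values were higher +SssI (10.4%, against 13%) and 172 were lower (24.1%, against 27.9%). The median change of a fragment was −3.29 points, with 10 fragments up and 21 down. Klf4_sc was lower at 22 of 23 CpGs, with a mean difference of −29.1 points, and Klf7_sc was lower at 13, at −9.90 points. The largest positive difference was that of FoxA1_sc, 7.15 points with 6 CpGs higher. c-Rel_sc had no CpG covered in both pools. The CpG at 151 bp, which had the lowest median in both, was higher in 10 and lower in 6 of 31 fragments (32.3% and 19.4%, against 23% and 24.6% of all constructs), with a median change of −0.333 points. Between runs of equal number, the median change of a fragment lay between −10.6 and −0.713 points upstream in 4 runs and between −15.6 and 4.88 downstream in 3.

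Nearly all control fragments had higher methylation in NPs than in ESCs. Under −SssI, 575 of 731 values were higher in NPs (78.7%, against 78.3%) and 21 lower (2.87%, against 2.61%), of which 11 belonged to c-Rel_sc. Apart from c-Rel_sc, whose mean difference was −31.2 points, each of the other 31 fragments had a higher mean in NPs, by 7.08 points for GATA_sc to 69.2 points for ZF5_Zfp161_sc, and the motif-free fragment was higher at all 23 CpGs, by 30.7 points. The median difference of a fragment was 30.5 points over the pools, and between the runs numbered 2 it was 10.1 points upstream, with 9 of 9 fragments higher in NPs. Under +SssI, 462 of 718 were higher (64.3%, against 69.8%) and 27 lower (3.76%, against 4.19%). Here Klf4_sc alone had a lower mean in NPs, at −14.8 points with 14 CpGs lower, and Creb_sc had the largest difference, 44.6 points. Between the runs numbered 6, the median difference was 31.1 points upstream over 9 fragments and 16.6 downstream over 5, against 18.9 over the pools. Under −SssI the median difference was largest at 37 and 46 bp, with 46.8 and 45.9 points. It was 44.2, 44.1 and 42.8 points at −208, −211 and 151 bp, against 13.7 at −235 bp and 16.6 at −103 bp. Without run 4 of ESCs −SssI, 298 of 547 values were higher and 27 lower. Without run 8 of NPs −SssI, which held the reads of c-Rel_sc, the lower count was 10, and without run 5 of ESCs +SssI the lower count of the second contrast was 47.

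Whether the effect of premethylation differed between the cell types was tested at each CpG as the difference of the 2 log odds ratios (two-sided Wald test on reads, Benjamini-Hochberg adjustment over all constructs). On the log odds scale, the effect of SssI was higher in NPs than in ESCs at 70 of 713 control values (9.82%, against 13.6% of all constructs). It was lower at 301 (42.2%, against 42.4%). The effect was lower most often in Klf4_sc, at 23 of 23 CpGs, and in Oct4-Sox2_sc, at 20. It was higher most often in PU.1_sc, at 11 CpGs. The direction in percentage points can differ from that of the log odds ratios. FoxA1_sc had 4 CpGs called higher, but its difference in points was positive at 2 of 23. Without run 4 of ESCs −SssI, 96 of 529 values were higher and 162 lower.

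The loss of the TET enzymes was set against ESCs under +SssI. In TET TKO ESCs, 465 of 718 control values were higher (64.8%, against 73.6%) and 36 lower (5.01%, against 3.55%). The mean was higher in 31 of 32 fragments, by a median of 21.8 points, and the motif-free fragment was higher at 22 of 23 CpGs. Pax7_sc2 was the exception, at −7.57 points, with 3 CpGs higher and 6 lower. The CpG at 151 bp was higher in 26 fragments (81.2%, against 90.3% of all constructs) and lower in 1 of 32, with a median difference of 42.1 points. Those at −208, −291 and −211 bp were higher by medians of 39.8, 38.4 and 36.0 points, in 28, 28 and 25 of 31 fragments (90.3%, 90.3% and 80.6%, against 95.1%, 91.8% and 85.2%). Those at 252 and −103 bp were higher by 8.58 and 8.01 points, in 13 and 14 fragments (40.6% and 45.2%, against 64.5% and 52.5%). The upstream amplicon of TET TKO ESCs came from 1 run, run 10, and without it 114 of the 160 downstream values left were higher and 4 lower. This contrast shares ESCs +SssI with 2 of the others.

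Single ESC lines that carry an Sc motif gave the profile without a pool. The labels call them scrambled, 1 without and 1 with M.SssI treatment, and the header of a paired table names the motif Oct4-Sox2_sc. The count columns of both tables carry the name of another sample, All_siRNAs, so that the values rest on the record each table is filed under. The mean over 23 CpGs was 71.8% in the −SssI line and 82.0% in the +SssI line, from 714 to 972 and from 1630 to 2231 reads per CpG. The pooled fragment Oct4-Sox2_sc had 56.9% and 80.3% in ESCs, with 11 reads at 151 and 252 bp −SssI. At 151 bp the lines had 27.0% and 57.2%, 43.4 and 24.2 points below the mean of the other 4 downstream CpGs, and at 252 bp they had 87.5% and 94.2%. At −211 bp they had 45.7% and 63.0%, and at −208 bp 47.2% and 64.4%, the lowest upstream values in both lines. At −103 bp they had 94.9% and 94.8%. The −SssI line differed from the pools at −101 bp, where it had its highest value, 97.4%, above −103 bp. It also differed at −187, −242 and −166 bp, which deviated by −9.23, −10.6 and 7.09 points from the mean of its other upstream CpGs. Over the control fragments of ESCs −SssI, the median deviations there from the amplicon mean were 7.45, 3.08 and −6.70 points. Across the 23 CpGs, the lines and the pooled fragment had a Spearman's rho of 0.646 −SssI and 0.775 +SssI. Each line is 1 library, and the 2 were compared with the pools by value only.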

How the data were processed

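Amplicon bisulfite sequencing of FR1 was analysed in 5 cell pools (ESCs −SssI, ESCs +SssI, NPs −SssI, NPs +SssI and TET TKO ESCs +SssI) and in 2 single ESC lines labelled scrambled. The authors sequenced bisulfite-converted amplicons with unique molecular identifiers, trimmed and aligned the reads (the submitters' processing notes name Trim Galore 0.4.4 and Bismark 0.20.0), removed duplicate molecules and deposited, per construct, CpG and numbered run, the counts of all reads and of methylated reads. Of these counts, those of all runs of a pool were summed, CpGs from −300 to −1 and from 4 to 260 bp were kept, and at least 10 reads were required. The deposited percentages were not used. The tables of ESCs −SssI and NPs +SssI are each listed for a second sample record labelled with a Sanger instrument, and each table was counted as 1 pool. A median of 113 to 429 reads per value limits precision, and the tests cover counting error only.

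Fisher's exact tests were run per construct and CpG, with Benjamini-Hochberg adjustment over all 62 constructs, and called at an adjusted p under 0.05 and a difference of at least 10 points. The difference of the SssI effects was tested as a Wald test of log odds ratios, with 0.5 added to each cell and no minimum difference. Calculations were made with pandas 2.3.3, scipy 1.17.1, Python 3.11.15 and numpy 2.4.6, and were tested on simulated data. In detail, the text names the motif-free fragment, the 3 highest and 3 lowest fragments of each pool, those with the widest and narrowest range over pools, and the 2 highest and 2 lowest CpGs of each pool, and it gives every other fragment and CpG by value. Fragments named in the contrasts are those with the largest values and were chosen after these were seen. Members, lists and tests were chosen with earlier results of these data known. Alternatives changed the coverage minimum, the minimum difference, the reference, the amplicon, the weighting of runs, the list of motifs and the runs left out. RNA-seq and WT fragments were not analysed here except for scale.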

Additional observations from a re-analysis of the deposited data

Results flagged for a closer look

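The difference between +SssI and −SssI was set against itself in the 2 cell types at each CpG, and it differed by a test of that difference. At 70 of 713 control values it was higher in NPs than in ESCs, and at 301 it was lower, by the Wald test of the 2 log odds ratios with Benjamini-Hochberg adjustment. Over all constructs the shares were 13.6% and 42.4%. Differences in percentage points are another scale, on which the direction at a CpG can differ from that of the log odds ratios. In points, the median difference of the 2 effects was −12.6. By the mean in points, the effect was lower in NPs in 23 of the 31 fragments and higher in 8. Without run 4 of ESCs −SssI the counts were 96 and 162 of 529 values.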

How the results depend on the processing

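The level, the counts of called values and the profile were recomputed under each alternative, and c-Rel_sc left out, alike runs counted once for the SssI effects and run 4 left out of them were chosen after seeing the data. For the mean level, a minimum of 50 reads gave 60.5% in ESCs −SssI and 90.0% in NPs −SssI. The share of methylated calls gave 58.8% in ESCs −SssI. Upstream CpGs alone gave 58.7% in ESCs −SssI, 68.8% in ESCs +SssI, 88.8% in NPs −SssI and 88.0% in NPs +SssI. Downstream CpGs alone gave 47.2% in ESCs −SssI, 63.6% in ESCs +SssI, 84.6% in NPs −SssI, 82.4% in NPs +SssI and 90.8% in TET TKO ESCs. Equal weight for each run gave 53.1% in ESCs −SssI, 65.1% in ESCs +SssI and 85.9% in NPs +SssI. Alike runs counted once gave 54.0% in ESCs −SssI. The motifs the study lists alone gave 57.1% in ESCs −SssI and 89.9% in NPs −SssI. A minimum of 20 reads gave 90.0% in NPs −SssI. Without c-Rel_sc, the values were 90.0% in NPs −SssI. A minimum of 1 read gave 86.2% in NPs +SssI. For the counts against the motif-free fragment, a difference of at least 20 points gave 92 higher in ESCs −SssI, 108 higher in ESCs +SssI, 60 lower in ESCs +SssI, 1 higher in NPs −SssI, 46 lower in NPs −SssI, 8 higher in NPs +SssI, 38 lower in NPs +SssI, 0 higher in TET TKO ESCs and 69 lower in TET TKO ESCs. The test within runs gave 102 higher in ESCs −SssI, 106 lower in ESCs −SssI, 61 lower in ESCs +SssI and 63 lower in NPs −SssI. No minimum difference gave 140 higher in NPs −SssI, 214 higher in NPs +SssI, 216 lower in NPs +SssI and 224 higher in TET TKO ESCs. All other controls as reference gave 94 higher in NPs −SssI. Between pools, a difference of at least 20 points gave 75 lower for +SssI against −SssI in ESCs, 24 higher for +SssI against −SssI in NPs, 61 lower for +SssI against −SssI in NPs, 11 lower for NPs against ESCs +SssI and 18 lower for TET TKO against ESCs. No minimum difference gave 130 higher for +SssI against −SssI in NPs, 295 lower for +SssI against −SssI in NPs and 42 lower for NPs against ESCs +SssI. A minimum of 20 reads gave 9 lower for NPs against ESCs −SssI. A minimum of 50 reads gave 8 lower for NPs against ESCs −SssI. Without c-Rel_sc, the values were 10 lower for NPs against ESCs −SssI. For the deviation at 151 bp, the mean of the same amplicon gave −23.8 points in ESCs −SssI, −19.5 points in ESCs +SssI, −23.1 points in NPs −SssI and −17.3 points in NPs +SssI. A minimum of 50 reads gave −31.8 points in ESCs −SssI, −29.3 points in NPs −SssI and −5.16 points in TET TKO ESCs. Fragments with at least 100 median reads gave −36.7 points in ESCs −SssI, −24.9 points in ESCs +SssI and −7.15 points in TET TKO ESCs. Values within single runs gave −24.6 points in ESCs −SssI, −19.5 points in ESCs +SssI, −33.2 points in NPs −SssI, −22.9 points in NPs +SssI and 1.03 points in TET TKO ESCs. Leaving out 1 run at a time, the mean level ranged from 53.7 to 69.8% in ESCs −SssI, 59.5 to 71.2% in ESCs +SssI, 86.7 to 90.3% in NPs −SssI, 85.8 to 87.7% in NPs +SssI and 88.4 to 91.1% in TET TKO ESCs. The counts against the motif-free fragment ranged from 39 to 243 higher and 137 to 216 lower for ESCs −SssI, 217 to 241 higher and 40 to 119 lower for ESCs +SssI, 35 to 80 higher and 83 to 107 lower for NPs −SssI, 76 to 137 higher and 88 to 118 lower for NPs +SssI and 17 to 137 higher and 20 to 138 lower for TET TKO ESCs. Between pools they ranged from 109 to 335 higher and 89 to 205 lower for +SssI against −SssI in ESCs, 66 to 91 higher and 148 to 179 lower for +SssI against −SssI in NPs, 298 to 608 higher and 10 to 27 lower for NPs against ESCs −SssI, 373 to 478 higher and 20 to 47 lower for NPs against ESCs +SssI and 114 to 465 higher and 4 to 40 lower for TET TKO against ESCs. For the SssI effects, leaving out run 4 of 1 ESC pool gave 54 to 96 higher and 162 to 304 lower. The cause of these shifts was not tested, beyond the fewer values covered in a run or amplicon. No paired analysis was possible because the labels give the pools no replicate numbers, and whether equal run numbers pair the pools is not stated, so that values between runs of equal number were only set side by side. Few reads limit c-Rel_sc and ER_sc most.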
